A study of Ovis aries with 16 samples.

Results

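Hippocampi of fetal sheep that went through transient hypoxia under ketamine were compared with those of fetuses that had neither hypoxia nor ketamine. The comparison takes every hippocampus array labelled hypoxia ketamine (HK, 4 fetuses) and every one labelled normoxia control without ketamine (NC, 3 fetuses), 7 of the 16 arrays. The other arrays are normoxia plus ketamine (NK, 4 fetuses) and hypoxia control (HC, 5 fetuses), and they serve here only to place the HK levels. All fetuses were in late gestation. In the HK and HC groups the ewe inhaled a gas low in oxygen for 30 min, followed by 23.5 h of recovery in normoxia, and NC and NK fetuses stayed in normoxia throughout. HK and NK fetuses received 3 mg/kg ketamine intravenously before the stimulus, and the whole hippocampus was taken at 24 h. HK and NC therefore differ in both hypoxia and ketamine, and their parts cannot be told apart by this comparison.

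Ketamine blocks the NMDA type of glutamate receptor, through which excess glutamate injures neurons when oxygen is short. Oxygen shortage in the fetal brain is also known to be followed by innate immune activity, in which microglia, endothelium and incoming leukocytes produce cytokines, adhesion molecules and antimicrobial proteins. The hippocampus is a target of stress steroids and holds many neuropeptide systems, including those of the corticotropin-releasing hormone family.

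Each array was one-color, with 1 fetus per array and 8 arrays on each of 2 slides. Most fetuses were twins, and since no label says which of them share a ewe, fetuses of a group may not be independent. The 75th percentile of the non-control spots, the intensity to which every array was scaled, ran from 901.4 to 1086 in NC and from 881.5 to 1156 in HK. The scanner software marked 77.66% to 79.84% of spots as well above background on the NC arrays, and 77.18% to 80.74% on the HK arrays. Levels below are log2 intensities relative to that percentile, so a level of 0 is the percentile itself and a difference of 1 is a 2-fold change. The number of arrays limits the precision. Tissue was bulk hippocampus, so that fewer cells of a type and less RNA per cell cannot be told apart.

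Of 12543 probes tested, 383 were higher in HK than in NC (3.05% of the probes tested) and 438 were lower (3.49%) at an unadjusted p under 0.05 in limma, called the criterion from here on, and 0 passed a Benjamini-Hochberg adjusted p of 0.05. A probe was placed at the untreated baseline when it missed the criterion and the 95% interval of its HK minus NC difference lay wholly within 0.5 log2 units of 0. By that definition 4978 probes (39.7%) lay at the baseline, and for the remaining 6744 (53.8%) the interval held 0 but reached past that margin, so they are called not settled. Of the probes at the baseline, 100 were saturated on an HK or NC array, where a difference cannot be seen. Among the 814 gene symbols with a tested probe, by their brightest probe, 47 were higher (5.77%), 16 lower (1.97%), 243 at the baseline (29.9%) and 508 not settled (62.4%), with a median difference of 0.049. Gene lists below are counted in the same way, by each gene's brightest probe. The median difference over all probes was -0.0048, with a median interval half-width of 0.412. For 518 probes (4.13%) each HK array lay above each NC array, and for 491 (3.91%) each lay below.

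HK arrays 2 and 4 stood apart from HK arrays 1 and 3 in neutrophil markers. Of 16 neutrophil markers listed, 3 were on the array and CATHL3 and LTF were tested, and their summed signal, with the 75th percentile set to 1, was 0.0926, 0.287 and 0.276 on NC arrays 1 to 3. The same sum was 0.334, 6.06, 0.295 and 7.20 on HK arrays 1 to 4, with CATHL3 the brighter gene. Of the HK arrays only 2 and 4 were high, and HK arrays 1 and 3 lay close to the NC arrays. HC arrays 2, 3 and 5 reached 1.59, 5.79 and 1.02. Over all probes the arrays fell into these pairs only in part. HK arrays 3 and 4 were the most alike of the group, with a correlation of 0.9834. HK array 2 was most like HK array 4, at 0.9781. The 5 tested markers of choroid plexus, the epithelium that makes cerebrospinal fluid, summed to 1.81, 89.4 and 5.25 on the NC arrays and to 11.6, 51.3, 3.13 and 36.5 on the HK arrays. On the high arrays, NC array 2 and HK arrays 2 and 4, nearly all of that came from TTR, the thyroid hormone carrier of that epithelium, and these arrays fall in both groups. The comparison was repeated without HK arrays 2 and 4, an alternative chosen after seeing the data, from CATHL3 and LTF. That fit keeps only HK arrays 1 and 3, so a call can end there through fewer arrays even where its difference stays as large. A lost call alone therefore does not show that a difference came from HK arrays 2 and 4. Without both arrays, 207 probes were higher, 200 lower and 4013 at the baseline. Of the 42 named probes past the criterion, 12 stayed past it, those of GAL, SLC15A1, BRS3, STAR, NPPC, TNFSF11, CRHBP, PDXK, TNFRSF11B and TGFA and of EE780570 and EE779763, which have no gene name. GAL reached a test only through its HK arrays, as given below, so its place among these carries no weight.

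**Figure D1:**
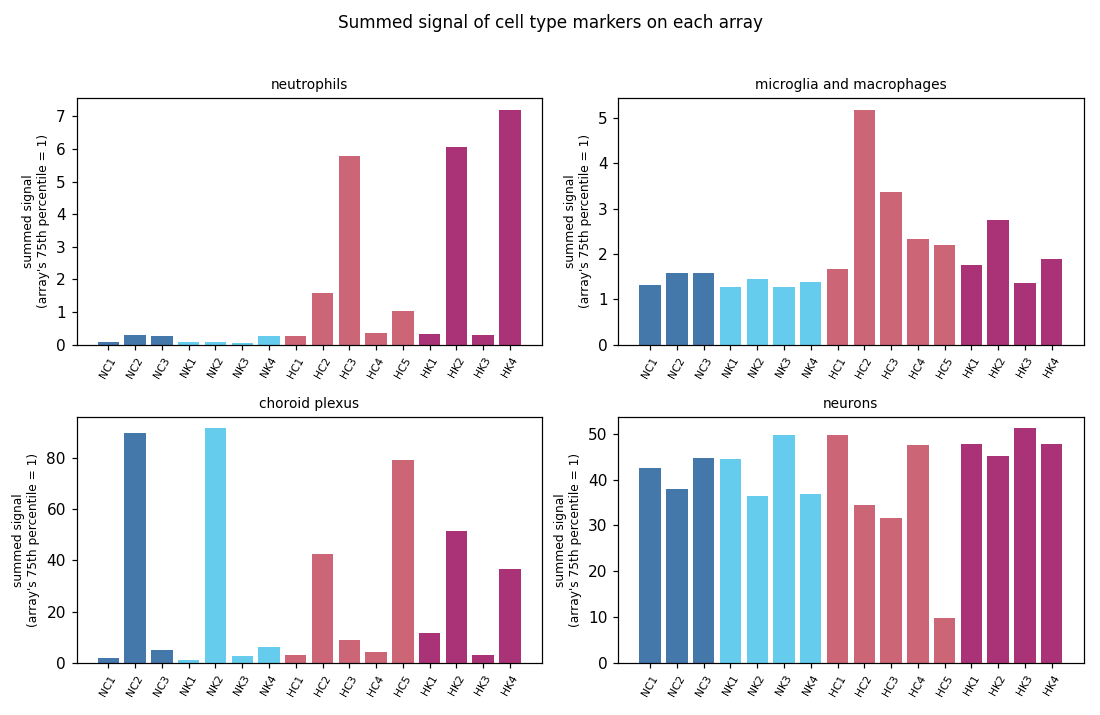
Summed signal of marker genes of neutrophils, microglia and macrophages, choroid plexus and neurons on each of the 16 arrays, in units of the array's 75th percentile, with 1 bar per array colored by group. Neutrophil markers reach 6.06 and 7.20 on HK arrays 2 and 4 and stay at or below 0.334 on the other HK and NC arrays, and HC array 3 reaches 5.79.

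Markers of the labelled tissue were present on every array. The 6 tested neuronal markers summed to 42.5, 38.0 and 44.8 on the NC arrays and to 47.8, 45.2, 51.2 and 47.9 on the HK arrays. The interneuron peptide SST was the brightest and made up most of the sum on these arrays, so the sum says little about the other markers. On HC array 5 the same sum was 9.78, where the other HC arrays had 31.7 to 49.8, and its NEUROD1 level was -5.91. Comparisons with HC include that array. Of the neuronal markers 0 met the criterion and 0 lay at the baseline, with a median difference of -0.38, or -0.14 without HK arrays 2 and 4. The HK minus NC difference was positive for 2 of them, SST and NPY, and negative for 4. GRIN1 levels were -0.72, -0.87 and -0.75 on the NC arrays and -0.99, -2.54, -1.10 and -1.97 on the HK arrays, without overlap. NEUROD1 levels were 2.00, 1.20 and 1.47 on the NC arrays and 0.53, -1.31, 1.38 and 0.70 on the HK arrays. Of 8 astrocyte markers 0 met the criterion, and AQP4, SLC4A4 and VIM lay at the baseline, AQP4 and VIM with intensities close to saturation. None of the 14 oligodendrocyte markers listed was on the array.

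STAR, which carries cholesterol into mitochondria as the first step of steroid synthesis, gave by 1 of its probes the smallest p of the comparison. Its levels were -6.94, -7.03 and -7.19 on the NC arrays and -4.99, -5.37, -5.50 and -5.48 on the HK arrays. All HK arrays lay above all NC arrays, and the groups were separated by more than the spread within either. The group means were -7.05 ± 0.13 (SD, n = 3) and -5.33 ± 0.24 (SD, n = 4), and the difference was 1.72 (95% interval 0.96 to 2.48). The signal was well above background on 4 of 4 HK and 0 of 3 NC arrays, so the fold is a bound. Bounds of this kind raise each NC level to at least the lowest signal of any spot well above background on that array, and for STAR HK was at least 2.52-fold higher. The named probe had an adjusted p of 0.57 in limma. Its other probe gave a difference of 2.10 and an adjusted p of 0.0918 in limma, the smallest of all probes. The level also exceeded that of NK by 0.92, past the criterion, while HK minus HC was -0.33 and missed it. Beside these, the fitted HC minus NC was 2.05 and NK minus NC 0.80, on the same dim NC arrays. The ketamine difference in hypoxia, HK minus HC, less that in normoxia, NK minus NC, was fitted at -1.13 for STAR, past the criterion, which 3.44% of probes met for that term.

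The probes of STAR are printed because the result rests on them. Capitals mark the stretch that both share, 59 of 60 bases, so the pair measures 1 stretch of the transcript and is not independent.
STAR A_70_P039531: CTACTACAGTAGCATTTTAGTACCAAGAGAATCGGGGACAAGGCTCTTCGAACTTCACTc
STAR A_70_P039532: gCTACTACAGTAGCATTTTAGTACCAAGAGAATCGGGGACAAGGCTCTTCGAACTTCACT

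Other genes of steroid hormones, stress and nuclear receptors lay nearer 0. Of 15 tested, STAR was the 1 past the criterion and 4 lay at the baseline, where 5.77% of all gene symbols were higher and 29.9% at the baseline, with a list median of 0.06, or 0.22 without HK arrays 2 and 4. The 4 at the baseline were CYP17A1, an enzyme of androgen and cortisol synthesis, at 0.00 (95% interval -0.31 to 0.32), and the nuclear receptors PPARA, PPARG and THRB. Under normexp, a background correction that moved the median of all probes to 0.328, CYP17A1, PPARA and PPARG differed by 0.77, 1.05 and 0.70. The STAR difference was 1.81 without HK arrays 2 and 4, 1.70 with slide as a block, and 1.81 and 1.70 within slides 1 and 2. It was 1.46 under normexp and missed the criterion, and 0.10 in the deposited log2 table, where it still met it.

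CRHBP, the secreted protein that binds corticotropin-releasing hormone and limits its action, was 1.99-fold higher in HK. Its levels were -0.70, -0.51 and -0.35 on the NC arrays and 0.76, 0.61, 0.54 and -0.02 on the HK arrays. The groups did not overlap, and HK array 4 lay lowest of its group. The difference was 0.99 (95% interval 0.36 to 1.63, adjusted p = 0.712 in limma), higher in 4 of 4 HK arrays. HK also exceeded HC by 0.69 and NK by 0.89, each past the criterion, which 4.74% of probes met in HK against HC and 5.26% in HK against NK. HC minus NC and NK minus NC were 0.30 and 0.10. The difference was 1.17 without HK arrays 2 and 4, 1.03 with slide as a block and 1.29 within slide 1, and 0.61 within slide 2, where it missed the criterion.

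Of 24 peptide signaling genes tested, 4 were higher, 0 lower and 0 at the baseline, with a median of 0.29 against 0.049 over all gene symbols, of which 5.77% were higher and 29.9% at the baseline. GAL, among the 4, reached a test only through HK, as given below, so its call adds no weight to that count. Without HK arrays 2 and 4 the list median was 0.31. BRS3 encodes an orphan receptor of the bombesin receptor family that acts in energy balance. Its levels were -6.37, -7.84 and -5.86 on the NC arrays and -5.19, -4.71, -4.63 and -5.25 on the HK arrays. The HK arrays lay close together and above all NC arrays, of which array 2 was lowest. HK exceeded NC by 1.74 (95% interval 0.73 to 2.76), with 2 of 3 NC arrays well above background. It also exceeded HC and NK past the criterion, with signal well above background on 3 of 5 HC and 1 of 4 NK arrays, so no size is given. Without NC array 2 the BRS3 difference was 1.17, and within slides 1 and 2 it was 2.16 and 0.91, the latter short of the criterion. It was 1.35 under normexp and missed it, and 0.08 in the deposited table and met it.

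NPPC, the precursor of C-type natriuretic peptide, had levels of -3.51, -3.69 and -3.38 on the NC arrays and -2.55, -1.82, -2.57 and -2.42 on the HK arrays. The groups did not overlap, and HK array 2 was highest. The difference was 1.19 (95% interval 0.47 to 1.90), a 2.28-fold rise, and HK exceeded NK by 1.24, past the criterion. HK minus HC was 0.33 and missed it. The NPPC difference was 0.97 without HK arrays 2 and 4, and 1.42 and 0.88 within slides 1 and 2, the latter short of the criterion, as was 1.21 under normexp.

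GAL, the precursor of the neuropeptide galanin, was well above background on 2 of 4 HK, 1 of 5 HC, 0 of 4 NK and 0 of 3 NC arrays. It therefore reached the 3 arrays needed for a test only through HK, and counts among the 4 higher genes on that basis. Its levels were -9.02, -7.50 and -8.24 on the NC arrays and -6.59, -3.02, -6.79 and -6.85 on the HK arrays. HK array 2 was far above the other HK arrays, which still lay above all NC arrays. The fitted difference was 2.44, with HK at least 1.84-fold higher as a bound. Without HK array 2 the GAL difference was 1.51, and without NC array 1 it was 2.05 and missed the criterion, as did its other probe, which shares 59 bases, at 2.08. GHRHR, the receptor for growth hormone-releasing hormone, differed by 1.28, with signal well above background on 2 of 4 HK and 0 of 3 NC arrays. The GHRHR bound was at least 1.64-fold, and without HK arrays 2 and 4 the difference was 0.88 and missed the criterion. Under normexp and in the deposited table GAL differed by 1.38 and 0.11 and GHRHR by 1.31 and 0.04, each short of the criterion.

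**Figure D2:**
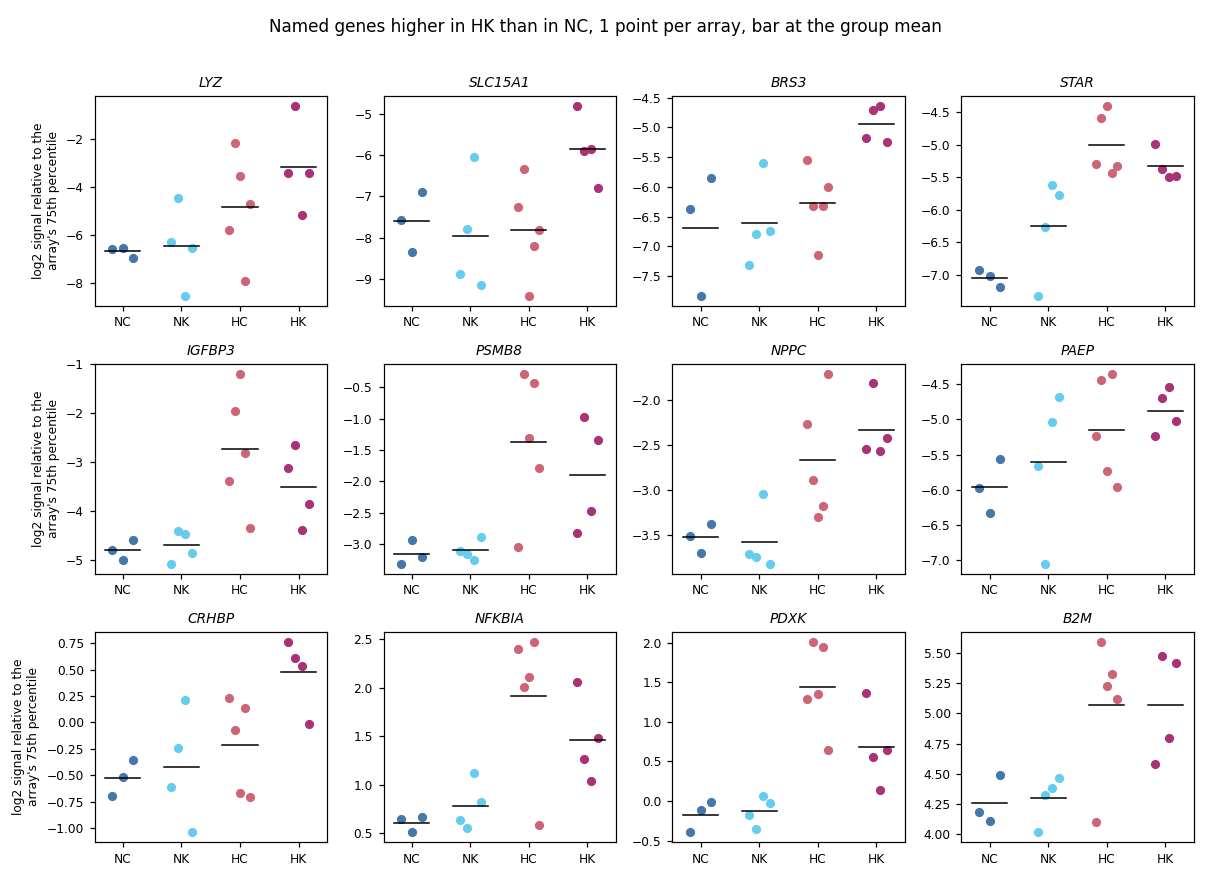
Levels of the 12 named genes higher in HK than in NC, as log2 signal relative to the array's 75th percentile, with 1 point per array in the 4 groups and a bar at each group mean. In every panel the HK points lie above the NC points, with LYZ the gene with the widest HK spread.

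Innate defense genes were higher in part, several of them mainly on HK arrays 2 and 4. Of 17 phagocyte defense genes tested, 6 were higher, 0 lower and 0 at the baseline, against 5.77%, 1.97% and 29.9% of all gene symbols. The list median was 0.64, and 0.11 without HK arrays 2 and 4. The 6 were LYZ, CATHL3, SC5, CLEC6A, LTF and SLC11A1. Without HK arrays 2 and 4 each of the 6 missed the criterion, with differences of 2.41, 0.70, 0.80, 1.26, 0.70 and 1.66 in that order. Since those arrays were chosen by CATHL3 and LTF, the fall of these 2, and of the similar SC5, restates that choice and is no separate result.

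LYZ, the bacterial wall-cleaving enzyme lysozyme, had the largest difference of a named gene. Its levels were -6.58, -6.53 and -6.98 on the NC arrays and -3.41, -0.59, -5.17 and -3.42 on the HK arrays. All HK arrays lay above all NC arrays, with HK array 2 highest and HK array 3 lowest of the group. The difference was 3.55 (95% interval 0.84 to 6.26), and 1 of 3 NC arrays was well above background. Its other probe, for which 0 of 3 NC arrays were well above background, put HK at least 11.8-fold higher. HK minus NK was 3.33, past the criterion, and HK minus HC was 1.68 and missed it. Within slides 1 and 2 the LYZ difference was 4.55 and 2.69, the latter short of the criterion, as was 0.63 in the deposited table. The pair of probes shares 40 of 60 bases, in capitals, and is shown because it carries the largest difference.
LYZ A_70_P051227: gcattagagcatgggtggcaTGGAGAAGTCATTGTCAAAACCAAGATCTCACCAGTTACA
LYZ A_70_P051226: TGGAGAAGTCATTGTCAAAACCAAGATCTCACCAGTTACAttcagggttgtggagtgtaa

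CATHL3 and SC5 belong to the cathelicidins, antimicrobial peptides stored in neutrophil granules. CATHL3 levels were -3.83, -1.99 and -2.12 on the NC arrays and -1.89, 2.53, -2.0 and 2.79 on the HK arrays. HK arrays 2 and 4 were high, HK arrays 1 and 3 lay among or beside the NC arrays, and the groups overlapped. The CATHL3 difference was 3.00 (95% interval 0.10 to 5.91), 2.93 with slide as a block and 2.68 with the replicate block, and the block fits missed the criterion. Its call also ended without NC array 1, 2 or 3 or HK array 2 or 4, with differences of 2.42, 3.33, 3.27, 2.28 and 2.19. SC5 differed by 2.87, and its call ended without NC array 1 or 3 or HK array 2 or 4, with differences of 2.41, 2.99, 2.21 and 2.2. BAC5, also a cathelicidin of the phagocyte defense list, differed by 2.88 (95% interval -0.06 to 5.81), missed the criterion and was not settled. CATHL1B, another cathelicidin looked at after its values were seen, differed by 3.19 and 3.15 by its probes, with HK array 2 and HK array 4 again high. Cathelicidin transcripts are alike in sequence, so which of them each probe reads is uncertain.

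LTF, the iron-binding granule protein lactoferrin, differed by 1.89, and its call ended without NC array 1 or HK array 2 or 4, with differences of 1.60, 1.49 and 1.5. CLEC6A, the C-type lectin Dectin-2 of macrophages, was well above background on 3 of 4 HK and 0 of 3 NC arrays, with HK at least 2.86-fold higher as a bound. The CLEC6A call ended without NC array 2 or 3 or HK array 2, and without the last the difference was 1.75. SLC11A1, a metal transporter of the phagosome, differed by 1.85, and its call ended without NC array 2 or HK array 1, the latter leaving 1.46, and its other probe missed the criterion at 1.40. CLEC6A was the 1 of 10 microglia and macrophage markers past the criterion, with a list median of 0.36, or 0.04 without HK arrays 2 and 4. The summed signal of these markers was 1.31, 1.58 and 1.57 on the NC arrays and 1.77, 2.76, 1.36 and 1.89 on the HK arrays, ITGB2 the brightest. HK array 2 was the high one, and HK array 3 lay within the NC range.

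Vascular adhesion and antigen presentation gave 3 calls, 1 of 9 and 2 of 11 genes, where 5.77% of all gene symbols were higher. SELP, the P-selectin that captures leukocytes on activated endothelium, had levels of -4.79, -4.52 and -6.03 on the NC arrays and -1.89, -1.73, -4.53 and -2.74 on the HK arrays. HK array 3 lay at the NC level and the others above it. The difference was 2.39 (95% interval 0.20 to 4.58), and the call ended without NC array 1 or 3 or HK array 1, 2 or 4, with differences from 1.93 to 2.55, and without HK arrays 2 and 4 together, at 1.90. Its other probe differed by 1.36 and missed the criterion. SELP was the 1 of 9 leukocyte adhesion genes past the criterion, and the integrin subunit ITGB1 lay at the baseline at 0.20 (95% interval -0.06 to 0.47). Of 11 genes of the interferon response and antigen presentation, B2M and PSMB8 were higher, and the list median of 0.41 became 0.04 without HK arrays 2 and 4. B2M, the light chain of MHC class I, had levels of 4.19, 4.11 and 4.49 on the NC arrays and 4.58, 5.48, 4.80 and 5.42 on the HK arrays. The groups did not overlap, and HK arrays 2 and 4 were highest. The B2M difference was 0.81, a 1.75-fold rise, and its call ended without NC array 2 or HK array 2 or 4, with differences of 0.73, 0.67 and 0.69. PSMB8, a subunit of the immunoproteasome, differed by 1.25, and its call ended without any 1 of the NC arrays or of HK arrays 2 and 4, with differences from 0.94 to 1.36, and with slide as a block, at 1.22. Without HK arrays 2 and 4 together B2M differed by 0.43 and PSMB8 by 0.51, both short of the criterion.

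Some genes had also been measured by quantitative PCR in the study. Of the 10 such genes with a tested probe, NFKBIA was higher, 0 were lower and 0 lay at the baseline, against 5.77%, 1.97% and 29.9% of all gene symbols. Their median of 0.50 became 0.02 without HK arrays 2 and 4. NFKBIA, the inhibitor that retains NF-kappa B in the cytoplasm and is induced by it, had levels of 0.65, 0.51 and 0.67 on the NC arrays and 2.06, 1.27, 1.04 and 1.49 on the HK arrays. All HK arrays lay above all NC arrays, with HK array 1 highest. The difference was 0.85 (95% interval 0.07 to 1.64), and its call ended without any 1 of the NC arrays or of HK arrays 1 and 4, with differences from 0.65 to 0.88, and without HK arrays 2 and 4 together, at 0.94. CXCL10, a chemokine induced by interferon, had levels of -2.64, -1.13 and -3.63 on the NC arrays and -3.81, 3.51, -1.06 and 3.30 on the HK arrays. HK arrays 2 and 4 were far above the rest, and HK array 1 lay below all NC arrays. The CXCL10 difference of 2.95 had a 95% interval from -0.71 to 6.62, and without HK arrays 2 and 4 it was 0.03.

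Other genes of that list missed the criterion against NC. CD14, a coreceptor for lipopolysaccharide, differed from NC by 0.87 (95% interval -0.13 to 1.87) and lay below HC by a difference of -1.10, past the criterion. TNF missed the criterion against NC and lay below HC past it. Only 2 of the 4 HK arrays and 2 of the 3 NC arrays had TNF well above background, so no TNF size is given. TLR2, TLR4 and IL1B differed from NC by 0.57, 0.43 and 0.34, each short of the criterion. Their HK minus HC differences were -0.63, -0.64 and -0.83, each past the criterion. MYD88, PTX3 and PTGS2 differed from NC by 0.19, -0.70 and -1.48 and from HC by -0.24, -0.95 and -0.28, and met it in neither. So for these genes the interval neither separates HK from the untreated level nor places it there.

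**Figure D3:**
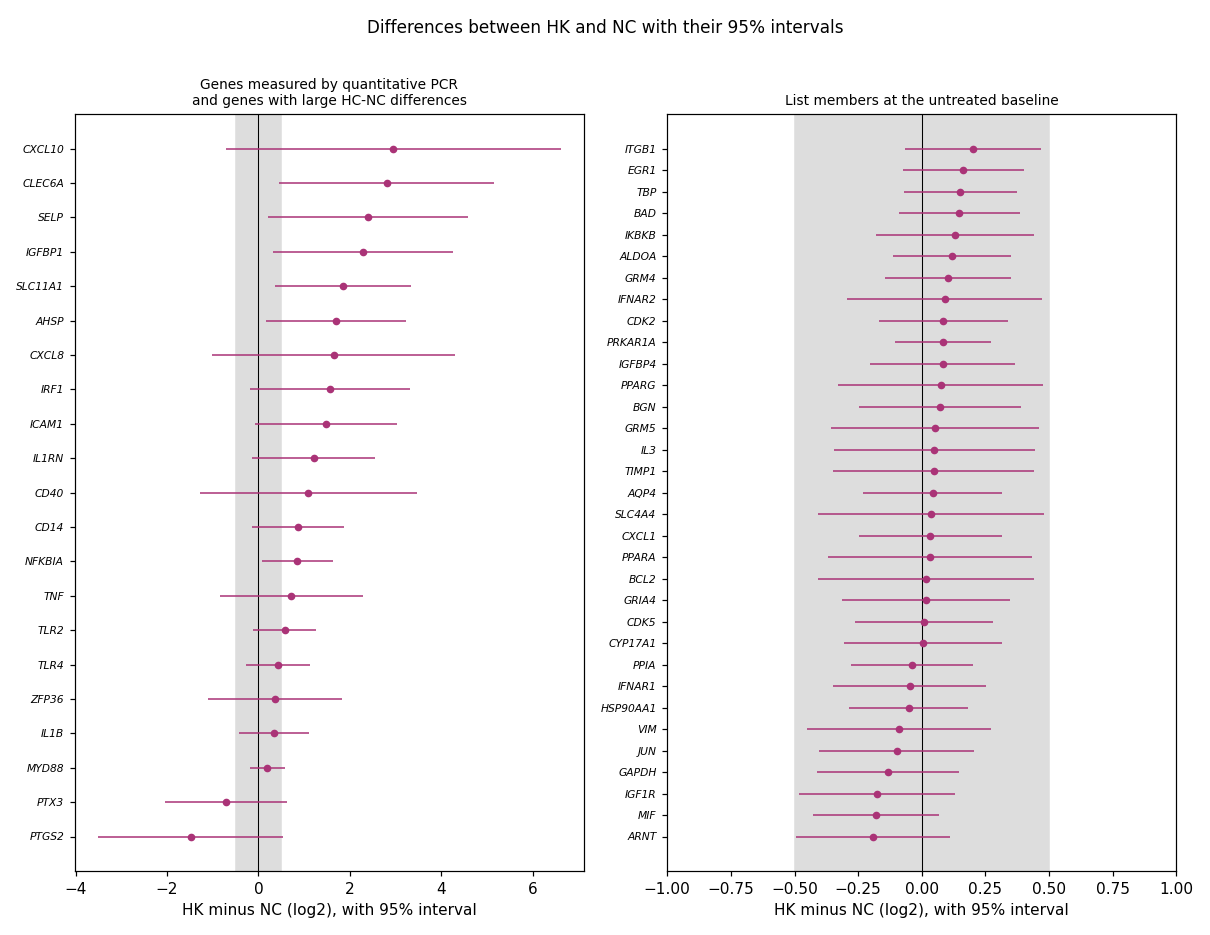
HK minus NC differences in log2 with 95% intervals for the genes measured by quantitative PCR and those with the largest HC minus NC differences (left), and for gene list members at the untreated baseline (right), with the gray band marking 0.5 log2 units on either side of 0. Intervals on the left are wide and most cross 0, as for CXCL10 from -0.71 to 6.62.

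HC minus NC met the criterion for 10.8% of probes. The 12 symbols with the largest such differences among those past it with no overlap between HC and NC arrays, chosen on arrays that share the NC group and so given as a description, split in HK. Past the criterion in HK minus NC were SELP, CLEC6A, IGFBP1, SLC11A1 and AHSP. IGFBP1, a binding protein of insulin-like growth factors that responds to low oxygen, had levels of -8.89, -8.49 and -8.55 on the NC arrays and -4.35, -5.97, -8.71 and -6.40 on the HK arrays. HK array 3 lay within the NC range, and the signal was well above background on 3 of 4 HK and 0 of 3 NC arrays. HK was at least 1.26-fold higher as a bound, and without HK array 1 the fitted difference fell from 2.29 to 1.62 and missed the criterion, as it did without NC array 1 or 3 or HK array 2, at 2.16, 2.33 and 2.16, and without HK arrays 2 and 4 together, at 2.11. A probe that shares 59 bases with it also met the criterion. That probe was well above background on 2 of 4 HK and 0 of 3 NC arrays, so no size is given. The brightest IGFBP1 probe, with 5 shared bases, differed by 0.73, missed the criterion and was not settled. The others, CXCL10, CXCL8, IRF1, ICAM1, IL1RN, CD40 and ZFP36, did not meet it by the probe the rule names. CXCL8, the neutrophil-attracting chemokine interleukin 8, differed from NC by 1.64 (HC minus NC 3.76), and its other probe, which shares 20 bases with the first, by 2.80, past the criterion, with 0 of 3 NC arrays well above background and HK at least 2.30-fold higher as a bound. IL1RN, the antagonist of the interleukin 1 receptor, lay below HC past the criterion, with 2 of 4 HK arrays well above background, so no size is given. ZFP36, which destabilizes cytokine mRNA, was well above background on 0 HK and 0 NC arrays by the named probe, so no size is given. Its bright probe, well above background on all arrays, differed from NC by 0.16 and from HC by -0.09 and met the criterion in neither.

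Of 20 genes of the response to hypoxia, IGFBP3 was higher and AHR lower, where 5.77% of all gene symbols were higher and 1.97% lower. ALDOA and ARNT lay at the baseline, and the list median was 0.12, or 0.17 without HK arrays 2 and 4. IGFBP3, the main carrier of insulin-like growth factors, had levels of -4.81, -5.01 and -4.61 on the NC arrays and -3.13, -2.66, -4.39 and -3.86 on the HK arrays. The groups did not overlap, although HK array 3 lay close to the NC arrays. The difference was 1.30 (95% interval 0.05 to 2.55), and its call ended without any 1 of the NC arrays or of HK arrays 1 and 2, with differences from 1.02 to 1.40, and without HK arrays 2 and 4 together, at 1.05. AHR, the aryl hydrocarbon receptor, fell by 0.48 in log2, but normexp turned the difference to 1.01. Without NC array 3 it was -0.39 and without HK arrays 2 and 4 it was -0.25, both short of the criterion. The glycolytic enzyme ALDOA lay at the baseline at 0.12 (95% interval -0.11 to 0.35). ARNT, the partner of the hypoxia-inducible factors, lay there at -0.19 (95% interval -0.49 to 0.11) by its brightest probe, while its other probe was lower by a difference of -0.73.

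SLC15A1, an intestinal type of peptide transporter, was well above background on 4 of 4 HK and 0 of 3 NC arrays. Its levels were -7.58, -8.34 and -6.91 on the NC arrays and -4.81, -5.91, -5.86 and -6.80 on the HK arrays. HK array 4 lay next to the highest NC array, and the groups did not overlap. HK was at least 1.80-fold higher as a bound. It also exceeded HC and NK past the criterion, but only 2 of 5 HC and 1 of 4 NK arrays were well above background, so no size is given. Its call against NC ended without NC array 1 or 2 or HK array 1, 2 or 3, with differences from 1.40 to 1.78, and its brightest probe differed by 0.45 and was not settled. PDXK, the kinase that activates vitamin B6, differed from NC by 0.85, from NK by 0.80 and from HC by -0.77, each past the criterion, so that HK lay between them. The PDXK call against NC ended without NC array 1 or HK array 1, with differences of 0.74 and 0.62. PAEP, named for beta-lactoglobulin on the array, differed by 1.08 with a 95% interval reaching down to 0.00, and its call ended without NC array 1 or 2 or HK array 2, 3 or 4, with differences from 0.90 to 1.14, and without HK arrays 2 and 4 together, at 1.07. It also ended with slide as a block, at 1.02, with the replicate block, at 0.93, and with no filter on dim probes. AHSP, the chaperone of alpha-globin and 1 of 2 red cell markers tested, differed by 1.70 and by 1.61 on its other probe, which missed the criterion, and its call ended without NC array 2 or 3 or HK array 2, 3 or 4, with differences from 1.11 to 1.68, without HK arrays 2 and 4 together, at 1.09, and with the replicate block, at 1.43.

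Over all probes 438 were lower and 383 higher, but the larger number changed side in some fits, with 419 lower and 444 higher in the HK and NC arrays alone and 200 lower and 207 higher without HK arrays 2 and 4. Among named probes, 16 of the 42 calls were lower, 2 of them without a gene name, and that share depends on the rule that chose them. TNFRSF11B, the decoy receptor osteoprotegerin, had levels of -4.85, -5.12 and -4.88 on the NC arrays and -5.53, -6.40, -7.00 and -5.76 on the HK arrays. All HK arrays lay below all NC arrays. The difference was -1.22 (95% interval -1.93 to -0.51), and HK lay below NK by a difference of -0.87, past the criterion. Its brightest probe differed by -0.79 and also met it. The named TNFRSF11B probe was not well above background on all 16 arrays, which leaves its size uncertain. TGFA, a ligand of the epidermal growth factor receptor, had levels of -5.77, -5.21 and -5.22 on the NC arrays and -7.36, -5.92, -6.21 and -7.43 on the HK arrays. The groups did not overlap, HK array 2 lay closest to NC, and 1 of 4 HK arrays was well above background. The fitted TGFA difference was -1.33, of uncertain size because most HK arrays were not well above background. COL4A3, a basement membrane collagen chain, differed by -1.29, with HK array 1 close to the NC level. COL4A3 was also not well above background on all 16 arrays, which leaves its size uncertain. Its call ended without any 1 of the NC arrays or of HK arrays 3 and 4, with differences from -1.35 to -0.94, without HK arrays 2 and 4 together, at -1.30, and with the replicate block, at -1.13. Under normexp background correction these 3 genes turned to differences of 0.91, 0.94 and 0.76 and were not lower.

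**Figure D4:**
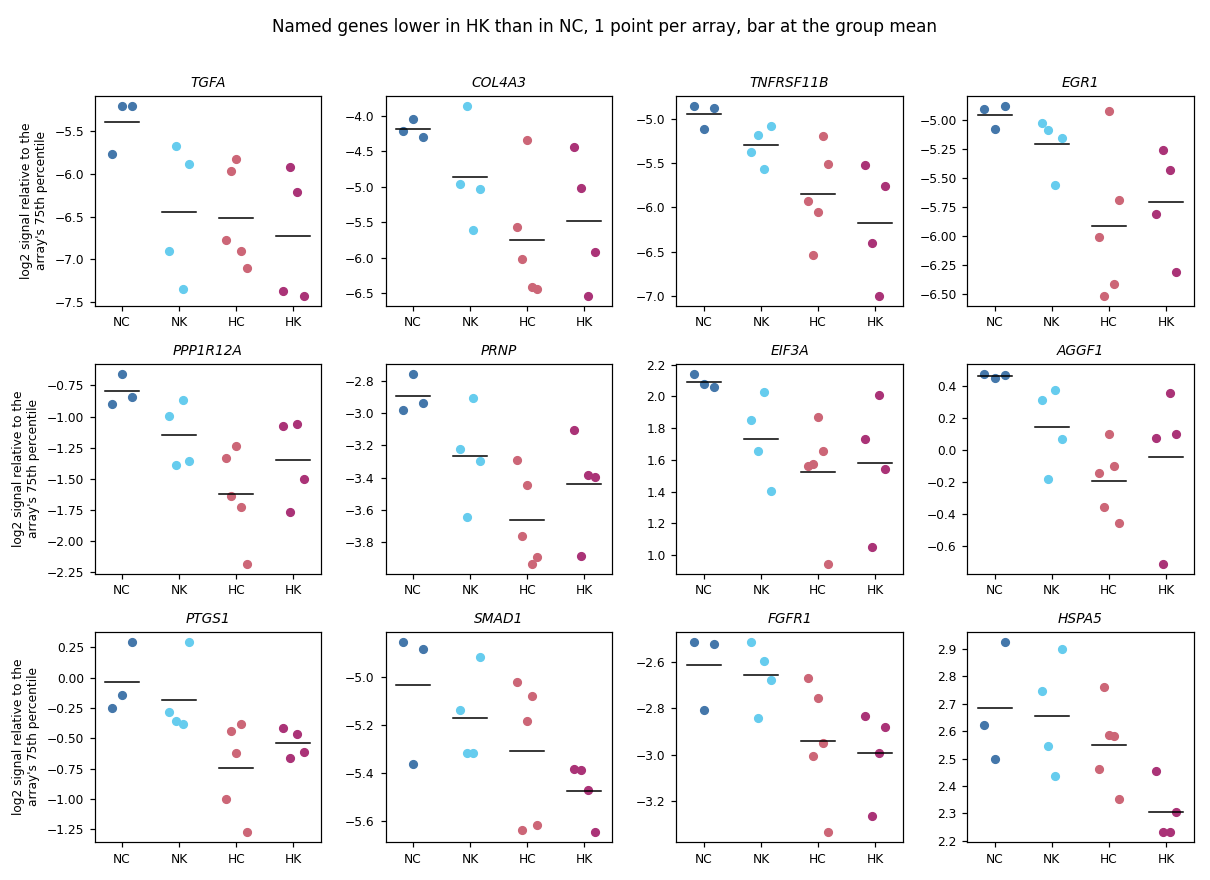
Levels of the 12 named genes lower in HK than in NC, as log2 signal relative to the array's 75th percentile, with 1 point per array in the 4 groups and a bar at each group mean. In each panel the HK points lie below the NC points, and the differences run from -1.33 for TGFA to -0.38 for HSPA5.

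HSPA5, the chaperone BiP of the endoplasmic reticulum, had levels of 2.62, 2.50 and 2.93 on the NC arrays and 2.46, 2.23, 2.23 and 2.30 on the HK arrays. The groups came close but did not overlap. It fell by 0.38 in log2, its other probe, with 7 shared bases, differed by -0.28 and also met the criterion, and without NC array 3 the difference was -0.26 and did not, nor at -0.34 without HK arrays 2 and 4. PTGS1, the constitutive cyclooxygenase, fell by 0.50, and its call ended without NC array 2 or 3 or HK array 2, 3 or 4, with differences from -0.56 to -0.34. FGFR1, a fibroblast growth factor receptor, fell by 0.38 and SMAD1, a mediator of bone morphogenetic protein signals, by 0.44, but normexp turned the differences to 0.32 and 0.94. The FGFR1 call ended without NC array 1 or 3 or HK array 2, with differences from -0.33 to -0.29, and the SMAD1 call without NC array 1 or 3 or HK array 4, with differences from -0.38 to -0.35. TRAF3, an adaptor of Toll-like and tumor necrosis factor receptors, fell by 0.38, while normexp turned the difference to 0.19. The TRAF3 call ended without NC array 1 or 2 or HK array 2, with differences from -0.35 to -0.28. HK minus NK was -0.005 for TRAF3 and missed the criterion, beside an NK minus NC of -0.37. Without HK arrays 2 and 4 together PTGS1, FGFR1, SMAD1 and TRAF3 differed by -0.41, -0.30, -0.40 and -0.20, each short of the criterion. The translation factor EIF3A differed by -0.51, the angiogenic factor AGGF1 by -0.51 and the myosin phosphatase subunit PPP1R12A by -0.55. HK array 2 was the lowest HK array for these 3 genes, and without it their differences were -0.33, -0.29 and -0.41 and missed the criterion. Their calls also ended without some other arrays, NC arrays 1, 2 and 3 and HK array 4 for EIF3A, NC arrays 1, 2 and 3 for AGGF1, and NC arrays 2 and 3 and HK array 4 for PPP1R12A, with differences from -0.58 to -0.48. Without HK arrays 2 and 4 together the 3 differed by -0.22, -0.25 and -0.27.

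For EGR1 and PRNP, as for IGFBP1 and SLC15A1, the probe named was not the gene's brightest. EGR1, an immediate early transcription factor of active neurons, was lower by a difference of -0.75 on its dim probe, while its bright probe lay at the baseline at 0.16 (95% interval -0.08 to 0.40). Each HK array still lay above each NC array on the bright probe, by a small margin. The call on the dim probe ended without any 1 of the NC arrays or of HK arrays 1 and 4, with differences from -0.81 to -0.55, without HK arrays 2 and 4 together, at -0.67, and with the replicate block, at -0.64, and normexp turned it to 0.91. The EGR1 probes share 22 of 60 bases, in capitals, and are printed because they disagree.
EGR1 A_70_P041731: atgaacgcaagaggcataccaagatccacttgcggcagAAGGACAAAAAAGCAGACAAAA
EGR1 A_70_P041732: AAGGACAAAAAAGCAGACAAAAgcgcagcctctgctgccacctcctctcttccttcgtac

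PRNP, the prion protein gene, differed by -0.55 on the named probe and by -0.59 on 1 more, while its brighter probes lay at the baseline at -0.07 and -0.09. The call of the named PRNP probe ended without NC array 2 or HK array 2, with differences of -0.48 and -0.40, and without both HK arrays 2 and 4, at -0.35, and normexp turned it to 0.44.

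Genes at the untreated baseline covered several groups. Under normexp 10 of 33 named probes at the baseline differed by more than 0.5, those of IKBKB, CDK2, PPARG, BGN, IL3, SLC4A4, PPARA, GRIA4, CYP17A1 and ARNT. Of 5 reference genes tested, B2M was higher as above and the other 4 lay at the baseline, among them TBP at 0.15 (95% interval -0.07 to 0.37) and GAPDH at -0.13 (95% interval -0.41 to 0.14). GAPDH, a glycolytic enzyme, had levels of -1.21, -1.59 and -1.60 on the NC arrays and -1.63, -1.79, -1.38 and -1.60 on the HK arrays. The groups overlapped, and NC array 1 was the highest of all 7. PPIA, another of the 4, was saturated on all 7 HK and NC arrays, so its placement does not show an unchanged level. The counts that follow are to be read beside the 29.9% of all gene symbols at the baseline and the 5.77% higher. Of 9 apoptosis genes, 0 met the criterion and BAD and BCL2 lay at the baseline. Of 9 signaling kinases and related genes, 0 met the criterion and CDK2, CDK5, PRKACA and PRKAR1A lay at the baseline. The interferon receptor subunits IFNAR1 and IFNAR2 lay there at -0.05 and 0.09, as 2 of 7 cytokine and chemokine receptors, of which 0 met the criterion.

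Glutamate and GABA neurotransmission, the system ketamine acts on, held 14 tested genes, of which 0 met the criterion and GRIA4, GRM4 and GRM5 lay at the baseline, where 5.77% of all gene symbols were higher, 1.97% lower and 29.9% at the baseline. The list median was -0.24, or -0.07 without HK arrays 2 and 4. GRM4, a metabotropic glutamate receptor, had levels of -0.25, -0.38 and -0.14 on the NC arrays and -0.32, -0.12, -0.22 and 0.04 on the HK arrays. The groups overlapped, and HK array 4 was the highest of all 7. The GRM4 difference was 0.10 (95% interval -0.15 to 0.35). GRIN1, the obligatory subunit of the NMDA receptor, differed by -0.87 and was not settled.

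**Figure D5:**
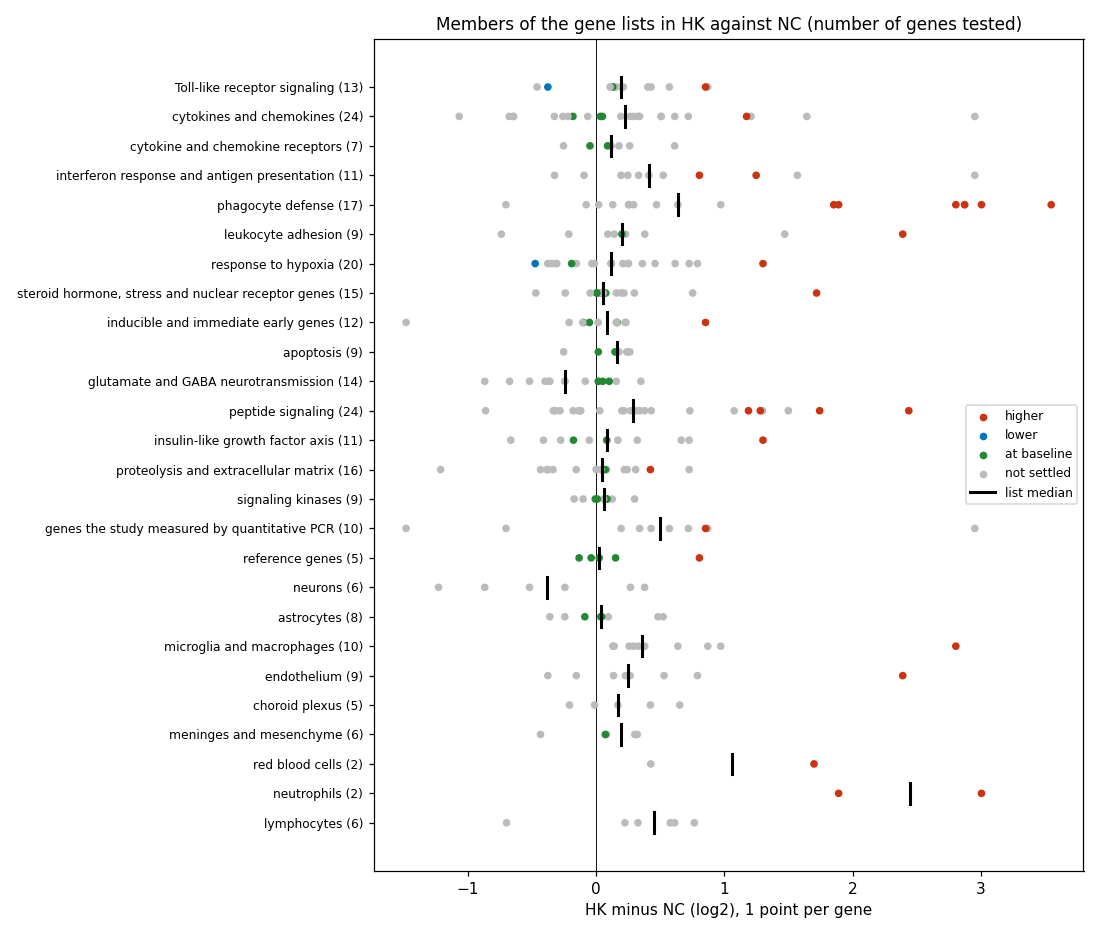
HK minus NC differences in log2 of the tested members of each gene list, with 1 point per gene by its brightest probe, colored by whether the gene was higher, lower, at the baseline or not settled, and a black bar at the list median. Phagocyte defense holds the most higher genes, 6 of 17, and the neuronal list has a median of -0.38.

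In the remaining lists the calls are to be read beside the 5.77% of all gene symbols that were higher and the 1.97% that were lower. Of 13 Toll-like receptor signaling genes, NFKBIA was higher and TRAF3 lower, the kinase IKBKB lay at the baseline, and the median of 0.19 became 0.02 without HK arrays 2 and 4. Of 24 cytokines and chemokines, the bone and immune cytokine TNFSF11 met the criterion, and CXCL1, IL3 and MIF lay at the baseline, CXCL1 with a probe saturated on 5 of the 7 HK and NC arrays. TNFSF11 was well above background on 1 of 4 HK and 0 of 3 NC arrays, so no size is given. Its groups overlapped, HK minus NK was -0.02, and its call ended with quantile scaling and without NC array 1 or 2 or HK array 1, 3 or 4. Of 12 inducible and immediate early genes, NFKBIA was higher, and EGR1, HSP90AA1 and JUN lay at the baseline by their brightest probes. Of 16 genes of proteolysis and extracellular matrix, SPP1, the secreted phosphoprotein osteopontin, was higher by 0.42, and BGN and TIMP1 lay at the baseline. The SPP1 call ended without NC array 1 or 3 or HK array 1, 3 or 4, with differences from 0.28 to 0.41, and without HK arrays 2 and 4 together, at 0.47. In the insulin-like growth factor axis IGFBP3 was the 1 of 11 past the criterion by the brightest probe, by which IGFBP1 was not settled, and IGF1R and IGFBP4 lay at the baseline. SELP was the 1 of 9 endothelial markers past it, and of 5 choroid plexus, 6 meningeal and 6 lymphocyte markers 0 met it.

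Of the probes without a gene symbol, the 2 highest and 2 lowest differences past the criterion are given, among those with no overlap of the groups and signal well above background on all HK and NC arrays. No file pairs these probes with a gene. EE811132 had levels of -3.53, -2.38 and -3.38 on the NC arrays and -0.82, 1.06, -1.70 and 1.08 on the HK arrays. All HK arrays lay above all NC arrays, for a difference of 3.00, which was 1.84 without HK arrays 2 and 4 and missed the criterion there. DY486945 differed by 3.30, by 2.80 without NC array 1 and by 2.02 without HK arrays 2 and 4, both short of the criterion. EE780570 had levels of -1.01, -0.94 and -1.96 on the NC arrays and -2.01, -5.00, -4.24 and -1.99 on the HK arrays. HK arrays 2 and 3 were far below the rest, and HK arrays 1 and 4 lay beside NC array 3. The EE780570 difference was -2.01 against NC, -1.73 against HC and -1.87 against NK, each past the criterion, and -1.44 without HK array 2. EE779763 differed by -2.39 from NC, and by -2.18 without NC array 3 and -1.79 without HK array 1, both short of the criterion. Their sequences, in lower case throughout, are given because no name identifies them.
EE811132: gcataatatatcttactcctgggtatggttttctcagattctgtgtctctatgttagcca
DY486945: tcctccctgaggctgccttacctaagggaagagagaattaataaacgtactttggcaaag
EE780570: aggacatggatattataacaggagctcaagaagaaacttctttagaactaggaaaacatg
EE779763: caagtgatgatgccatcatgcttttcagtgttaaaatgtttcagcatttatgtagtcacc

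Of the 42 named probes past the criterion, 10 stayed past it without each single array in turn, namely LYZ, EE811132, BRS3, STAR, GHRHR, NPPC, CRHBP, TNFRSF11B, TGFA and EE780570. An exact permutation test of 4 against 3 arrays has 35 arrangements and cannot give a two-sided p below 0.0571. With slide as a block 403 probes were higher and 494 lower, within slide 1 the counts were 428 and 491, and within slide 2, which holds NC array 3 alone of its group and so takes that group's spread from the others, 174 and 236. Without NC array 1 the number of higher probes was 221, and without NC array 2 it was 253.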

How the data were processed

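The authors deposited scanner output whose processed signal is an intensity, background-subtracted within the array by Feature Extraction 10.1.1.1 per the file headers, with a mark for spots well above background, by 13 standard deviations. The deposited log2 table, made by the authors with limma in R 2.15.1, was an alternative. Here log2 intensity minus the array's 75th percentile of non-control spots was used. Outlier spots were dropped, spots of a probe averaged, and a probe tested if so marked on 3 or more of 16 arrays (12543 of 15008). One limma 3.58.1 model of the 4 groups (R 4.3.3, data.table version 1.17.8) gave two-sided moderated tests and 95% intervals. Named genes were the 12 largest non-overlapping differences per direction past the criterion, the quantitative PCR genes, the 12 largest HC minus NC differences, list members past the criterion or at the baseline, and 4 unnamed probes. Names came from the array annotation and the RefSeq table of assembly ARS-UI_Ramb_v3.0. Alternatives covered background, scaling, filter, slide and replicate blocks, array weights, prior, margin and left-out arrays. Members and lists were chosen with earlier results of these data known. Some list members are not reported here and were left out of their lists.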

Additional observations from a re-analysis of the deposited data

Results flagged for a closer look

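On 7 of 90 named probes an HK array lay far from the other HK arrays, by its gap to the nearest one as a share of the group's range, past the 95% limit of Dixon's test. Chance alone gives about 1 in 20 groups. HK array 2 was high for GAL, with a share of 0.931 (-3.02 against -6.59 for the nearest array). It was low for TNFSF11 (0.924), SPP1 (0.898) and PPARA (0.909). HK array 4 was low for GRM5 (0.927), HK array 3 high for IL3 (0.87) and low for MIF (0.847).

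The ketamine difference in hypoxia (HK minus HC) departed from that in normoxia (NK minus NC) on 9 of 90 named probes. The threshold was an unadjusted p under 0.05 in limma, met on 3.44% of all probes, and each of the 9 had an adjusted p of 1 in limma. Many named probes were chosen by HK minus NC or HC minus NC, which share arrays with this term. The share among named probes therefore cannot be set against that of all probes. HK minus HC less NK minus NC was 0.8357 for ARNT, 0.9646 for SLC4A4, 0.6032 for TRAF3, 0.6574 for GRIA4, 0.6673 for AHR and 0.598 for PRNP. It was -1.13 for STAR and 2.326 for SLC15A1, which were well above background on 0 of 3 NC arrays, so these sizes are uncertain. The fitted value for ZFP36 was -2.217, but its probe was well above background on 0 HK, 0 NC and 0 NK arrays, so that number is no measured size. The bright ZFP36 probe gave -0.19 and missed the criterion.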

How the results depend on the processing

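The counts of 383 higher, 438 lower and 4978 baseline probes were within 1.5 times of these values under quantile and median scaling. Normexp background correction gave 110, 78 and 1520, moved the median of all probes to 0.328, and reversed TRAF3 (0.19), FGFR1 (0.32), SMAD1 (0.94), AHR (1.01), PRNP (0.44), EGR1 (0.91), TNFRSF11B (0.91), COL4A3 (0.76) and TGFA (0.94), and the cause was not tested. The deposited log2 table placed 10100 probes at the baseline, but its differences at low signal are much smaller, so the margin does not mean the same there. Within slide 1, 2666 lay there; within slide 2 the counts were 174, 236 and 1329, from fewer arrays. The replicate block gave 534 higher, 677 lower and 5771 at the baseline, although no file ties the replicate numbers to animals. The Benjamini-Hochberg threshold left 0 and 0 in limma, 1 probe per symbol gave 47, 16 and 243 from fewer probes, and a margin of 1 log2 unit 9372 at the baseline. Leaving out 1 array gave 221 to 439 higher, 295 to 597 lower and 3625 to 4733 at the baseline. Leaving out HK arrays 2 and 4 together, chosen after seeing the data, gave 207, 200 and 4013. Of 42 named probes past the criterion, those keeping their call numbered 41 with quantile scaling, 42 with median scaling, 39 with slide as a block, 37 with the replicate block, 21 in the deposited table, 10 with normexp, 18 within slide 1, 4 within slide 2 and 12 without HK arrays 2 and 4. Signal over background limits genes dim in NC, such as STAR and GAL, to bounds.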
